A study of Rattus norvegicus with 18 samples.

Results

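Transcript levels were compared between 3 colonies with a high signal for Pla2g2a and 6 colonies with a low one, among the 9 colonies of the study. All 9 descended from sorted single cells of fetal rat calvaria, the bone of the skull vault, and were cultured for 4 weeks at 37 C and 5% CO2 in a-MEM with ascorbic acid, BGP, Dex and fetal bovine serum. Between 100 and 300 cells of a colony gave the RNA, which was amplified with a small-sample labelling method. Each colony was read on 2 Affymetrix arrays, RAE230A (here chip A) and RAE230B (here chip B), which makes 18 arrays. The Pla2g2a-high colonies were Bi-I and Bi-II, which carried both the osteocalcin and the adipsin marker, and F-II, which carried neither. The Pla2g2a-low colonies were Bi-III (both markers), F-I and F-III (neither marker) and O-I, O-II and O-III (osteocalcin alone). No osteocalcin-only colony was on the high side. Each colony stems from 1 cell and is 1 sample, and the sources used here do not give rat strain, fetal age or number of donors. As nothing says that colonies came from separate animals, the spread between them may be that of 1 cell preparation.

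The sides were read from 1 probe set. After every array had been rescaled to a trimmed mean of 1500, the Pla2g2a probe set of chip A gave 36330.4 in Bi-I, 21794.3 in Bi-II and 3215.3 in F-II, against 39.5 to 152.6 in the 6 low colonies. The rule placed a colony on the high side above 1000. F-II was the colony nearest above this limit and F-III, at 152.6, the nearest below. These values chose the sides and are no finding. Since every other gene was read from the RNA of the same colonies, all differences between the sides are given as a description, with signals, differences and standard errors but no p-value for a gene.

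Pla2g2a encodes the group IIA secreted phospholipase A2, an enzyme that releases fatty acids from membrane phospholipids and is known as an inflammation-induced product of many mesenchymal cells. Fetal calvaria cultures hold progenitors of bone-forming osteoblasts together with fibroblast-like and fat-forming cells. Genes of the complement cascade and of the small leucine-rich proteoglycans were among those that stood apart most between the sides, beside others of neither family. The complement cascade is a chain of plasma proteases, partly made by fibroblasts, that tags and lyses targets. The small leucine-rich proteoglycans are secreted proteins that bind collagen fibrils and set their diameter and spacing.

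Before the comparison, several arrays stood apart. F-III was the least like the rest, with a mean Pearson's r to its 8 fellows of 0.664 on chip A and 0.326 on chip B, where each other colony reached at least 0.755 and 0.513. By the 100 non-control probe sets that the chips share, 8 of 9 colonies matched their own chip B array best, while the chip A array of O-III was closest to the chip B array of Bi-III (r = 0.551, against 0.403 with its own). The chip A array of O-I had been deposited at a trimmed mean of 64.4 rather than 1500. The GAPDH control probe sets, which compare the 3' with the 5' end of a transcript, differed by 3.03, 3.57 and 0.83 log2 units in Bi-I, Bi-II and F-II, against 3.08 to 3.54 in the low colonies on chip A. F-II thus stood apart from all 8 other colonies in this control, on chip B too (0.90 against 3.45 to 3.94), whereas its beta-actin control lay among the others on chip A (3.30 against 2.42 to 3.66) and above them on chip B (5.02 against 2.36 to 4.01). The part of these array features in the results was not tested, and values without the arrays concerned are given below. Bglap, which encodes osteocalcin, was dim on both sides (20.9, 21.6 and 59.5 in the high colonies against 27.1 to 299 in the low ones). So was Cfd, which encodes adipsin (251, 413 and 284 against 113 to 522). Neither probe set separated the sides. Bglap lay at or below percentile 5.4 of the array in every colony but F-III, which carried neither marker and held the 299. At that level the Bglap probe set cannot show whether the osteocalcin transcript differed.

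On chip A, 309 of 9424 probe sets (3.28%) lay higher in all 3 high colonies than in all 6 low colonies with a difference of at least 1 log2 unit, and 112 (1.19%) lay lower by the same rule. On chip B, 234 of 9887 (2.37%) lay higher and 105 (1.06%) lower. Differences of at least 2 log2 units were held by 50 of the higher and 4 of the lower chip A probe sets, and by 43 and 1 on chip B. The larger differences were thus nearly all toward the high colonies. The 3-of-9 filter let through 24 of the 309 and 22 of the 234 higher probe sets by the high colonies alone, so these had to differ. For background, limma's moderated test over each chip gave 82 probe sets with an adjusted p under 0.05 on chip A (0.870%, 72 of them higher) and 28 on chip B (0.283%, all higher), and 1454 and 997 at an unadjusted p under 0.05. Nothing is read from these tests, because the sides were chosen on the same arrays. The counts moved with single colonies: without O-I, F-II or Bi-I the chip A counts were 476, 474 and 453 higher and 186, 218 and 245 lower, a rule with fewer colonies being easier to meet. On chip B they were 373 higher and 184 lower without O-I, 625 and 284 without F-II, 313 and 230 without Bi-I, and 290 and 216 without Bi-II. Without F-III the counts were 296 and 115 on chip A and 225 and 119 on chip B, and without O-III 330 and 123, and 286 and 146. On the signals as deposited, where O-I is on another scale, chip A gave 687 higher and 0 lower probe sets, with the median of all differences at 0.42.

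Among complement genes, C1s, C1r, C2, C3 and the inhibitor gene Serping1 were each higher in all 3 high colonies. C1s encodes the protease that C1r activates at the start of the classical pathway. Its signal was 19977 in Bi-I, 30418 in Bi-II and 26945 in F-II, against 204 to 1261 with a median of 1060 in the low colonies. The nearest colonies of the sides were Bi-I and, among the low ones, O-II at 1261, and the mean difference was 4.51 on the log2 scale (SE 0.365, 22.8-fold). C1r, which lies directly beside C1s on chromosome 4 in the RefSeq gene table, gave 3388, 4484 and 5199 against 154 to 1183 with a median of 344 (difference 2.80, SE 0.416). Among the low colonies it was highest in Bi-III, F-I and F-III, at 1183, 765 and 441, and at most 247 in the osteocalcin-only colonies. C3, the central component on which all pathways converge, gave 9308, 25398 and 9371 against 688 to 1943 with a median of 903 (difference 3.43, SE 0.371). C2, the protease partner of C4 in the C3 convertase, gave 10469, 56053 and 27362 on chip B against 2896 to 4525 with a median of 3333 (difference 2.75, SE 0.411). Its 2 other probe sets were higher by 1.89 and 1.01, with overlapping sides. Serping1, the inhibitor of C1r and C1s, gave 1866, 3479 and 1283 against 64.7 to 226 with a median of 169 (difference 2.56, SE 0.433). The filter kept Serping1 through the high colonies alone, so it had to differ. Leaving out each colony in turn kept the C1s difference between 4.24 and 4.68, that of C3 between 2.95 and 3.66 and that of C2 between 2.18 and 3.37.

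Not every complement gene was higher. Of 27 listed genes 21 had a probe set with 1 symbol and 12 were kept by the filter. Of these, 7 had a higher and 5 a lower mean in the high colonies, and 5 passed the rule of no overlap and 1 log2 unit upward, against 2.91% of all 10077 genes, and 0 downward, against 1.03%. Among the 5 that passed, Serping1 had to differ by the way the filter kept it, and C1s had been given together with the rule that chose the sides. This list and the others were written with earlier results of these data known. Their shares beside those of all genes are thus a description and no independent support. The list's median difference was 0.37, beside 0.00 over all genes, and it was 0.17 without F-II and 0.61 without Bi-I. The receptor gene C5ar1, named because it alone lay lower without overlap, gave 209, 495 and 644 against 707 to 2068 with a median of 921 (difference -0.92, SE 0.386). C6, a subunit of the membrane attack complex, overlapped between the sides (1827, 1974 and 798 against 1845 to 4140, difference -0.80), as did the chaperone Clu (2579, 2995 and 1507 against 1274 to 14122, difference -0.36). The subunits C1qa, C1qb and C1qc, which start the classical pathway together with C1r and C1s, were below the filter.

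The promoters of C1r and C3 are shown because both genes were among those that stood apart most and both windows hold the letters TTGCNNAA, a form of the element bound by C/EBP factors, which are known regulators of acute phase genes. Each window runs from 250 bases before to 50 after the start of the gene (RefSeq, GRCr8). That of C1r is chr4:159098763-159099062 on the plus strand and that of C3 chr9:2201290-2201589 on the minus strand. Capitals mark the match, at bases 168 to 175 of the C1r window, where it reads on the opposite strand, and at bases 147 to 154 of the C3 window.
C1r: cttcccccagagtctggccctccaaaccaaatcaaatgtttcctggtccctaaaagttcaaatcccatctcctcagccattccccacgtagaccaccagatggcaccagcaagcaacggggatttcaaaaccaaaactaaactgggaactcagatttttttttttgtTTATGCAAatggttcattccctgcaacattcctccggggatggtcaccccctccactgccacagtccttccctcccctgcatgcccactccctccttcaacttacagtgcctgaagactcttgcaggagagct
C3: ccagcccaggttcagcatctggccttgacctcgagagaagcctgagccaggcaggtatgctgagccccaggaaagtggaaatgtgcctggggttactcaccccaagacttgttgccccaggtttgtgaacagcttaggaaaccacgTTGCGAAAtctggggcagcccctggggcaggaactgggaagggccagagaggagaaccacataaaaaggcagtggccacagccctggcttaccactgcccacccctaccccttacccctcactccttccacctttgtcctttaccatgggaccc
Both strands were searched. Of 33469 RefSeq promoters of this length 10.6% hold TTGCNNAA, so its presence in a window is common. Also searched, and not found in these 2 windows, were TATAAA (in 14.2% of promoters), TGANTCA (7.3%), TTCNNNGAA (8.9%) and 2 longer forms, of an NF-kB element (0.4%) and of an interferon-stimulated response element (3.9%). No match overlapped another. A match is a run of letters and not evidence of binding. Of 10 genes looked up by symbol, 6 were listed in the RefSeq promoter table, and the windows of the other 4, Fmod, Tspan8, Lum and Ogn, did not hold TTGCNNAA.

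**Figure D1:**
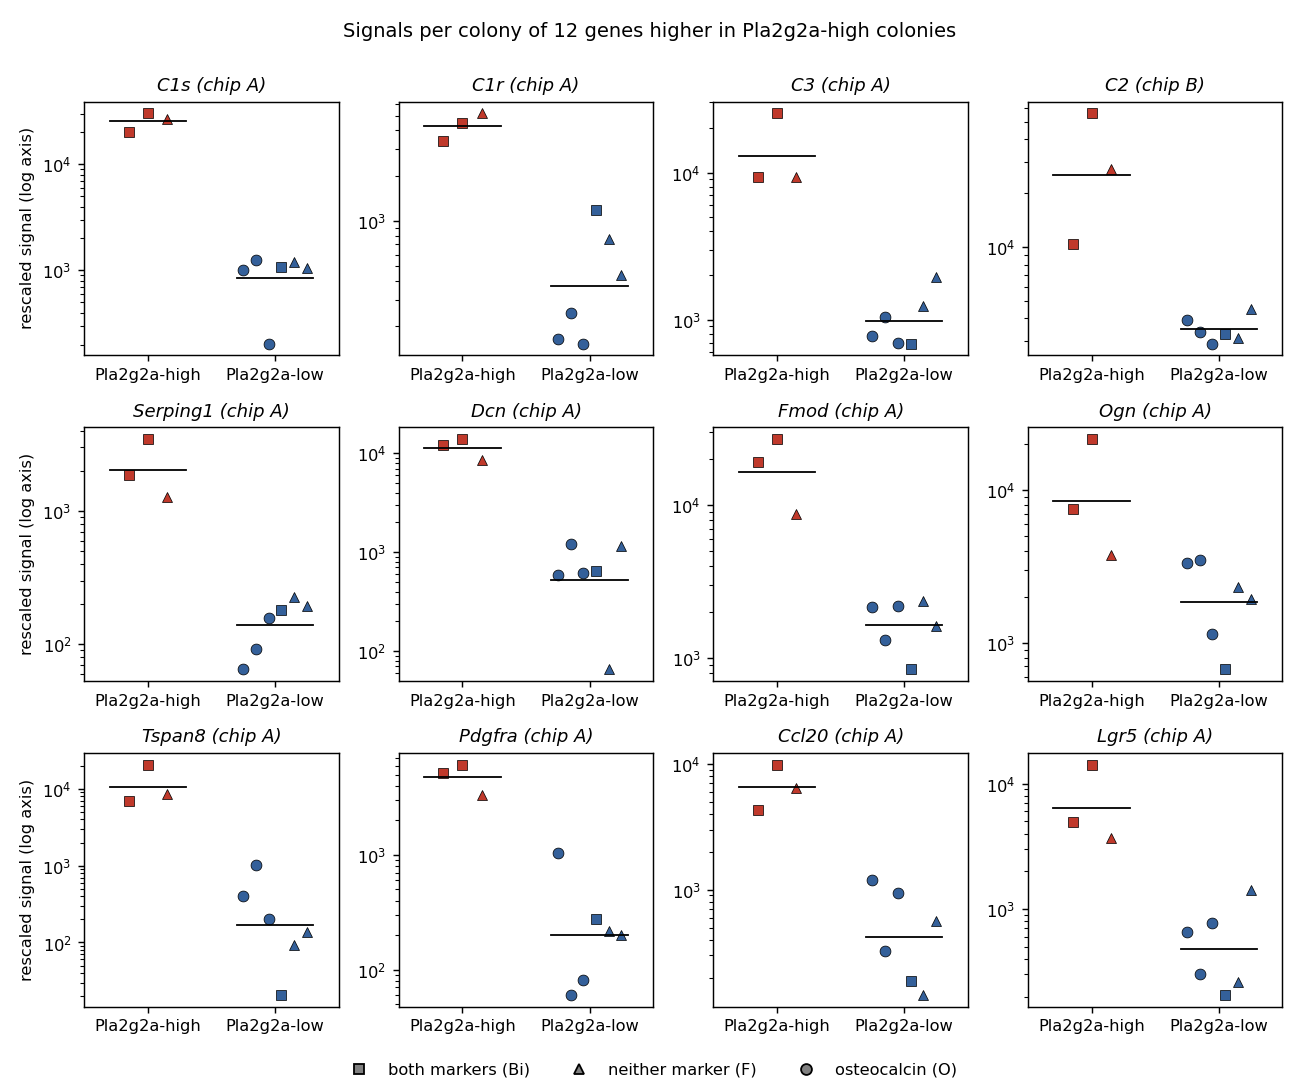
Rescaled signal (log axis) of 12 genes in each colony, with Pla2g2a-high colonies at the left (red) and Pla2g2a-low colonies at the right (blue) of each panel. Symbols give the marker type and bars the geometric mean. In all 12 panels the 3 high colonies lie above the 6 low colonies, with C1s at 19977 to 30418 against 204 to 1261.

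All 9 measured small leucine-rich proteoglycan genes had a higher mean in the high colonies, out of 13 listed. Decorin, encoded by Dcn, gave 12183 in Bi-I, 13949 in Bi-II and 8577 in F-II, against 65.4 to 1200 with a median of 635 in the low colonies. The difference was 3.76 (SE 0.418, 13.6-fold), and it was 3.90 without F-III and 3.96 without F-II. Fmod, which encodes the fibril-associated fibromodulin, gave 19238, 27160 and 8692 against 841 to 2346 with a median of 1884 (difference 3.15, SE 0.370). Ogn, which encodes osteoglycin, gave 7543, 21567 and 3770 against 670 to 3462 with a median of 2124 (difference 2.05, SE 0.504). Its 3 other probe sets were higher by 2.48, 1.52 and 1.59. These 3 genes passed the rule of no overlap and 1 log2 unit, as 2.91% of all genes did. Of the 3, Dcn had been given together with the rule that chose the sides, so this share too is no independent support. The median over the list was 1.17, and it was 1.94 without F-II.

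Lumican did not separate the sides although its difference was large. Lum, the neighbour of Dcn on chromosome 7, gave 28568, 52965 and 31700 against 199 to 32368 with a median of 6035 (difference 3.16, SE 0.961). Only O-I, at 32368, reached the high colonies among the low ones. Bgn, Prelp, Aspn, Omd and Podn also overlapped, with differences between 0.79 and 1.17, and F-II was the lowest of the high colonies in all of them but Prelp, with 2746 in Bgn and 372 in Aspn. Lum and these 5 genes lie outside the naming rule and are given to account for the whole list. The mean log2 level of the list was 12.74 in Bi-I and 13.61 in Bi-II, against 10.14 to 11.65 in the low colonies, and F-II lay between the other high colonies and all low ones.

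Collagen genes followed the same direction. Of 19 measured chains 17 had a higher mean in the high colonies, 9 did not overlap (4.75% of all genes did not, in this direction) and 8 passed the rule of no overlap and 1 log2 unit (2.91% of all genes). The median over the list was 1.05. Col1a2 and Col1a1 encode the chains of type I collagen, the main collagen of bone and fibrous tissue. Col1a2 gave 90527, 94358 and 72817 against 10669 to 40037 with a median of 21173 (difference 2.01, SE 0.415), and Col1a1 gave 82952, 65852 and 190161 against 16949 to 63876 with a median of 31561 (difference 1.60, SE 0.463). The gap for Col1a1 was narrow, since Bi-II at 65852 and F-I at 63876 nearly met. Second probe sets of both genes were higher by 1.62 and 2.24. Col14a1, a fibril-associated collagen, gave 4139, 38889 and 9235 against 205 to 1617 with a median of 1054 (difference 3.47, SE 0.562), and a second probe set was higher by 3.03. Bi-II alone made up much of this spread, and the difference ran from 2.60 to 4.18 when each colony was left out. Col6a3, a chain of microfibrillar collagen, gave 3354, 4839 and 8248 against 180 to 1792 with a median of 772 (difference 2.42, SE 0.422), with a second probe set at 0.77 on chip B. The list's mean log2 level was 13.48, 13.58 and 13.32 in the high colonies and at most 12.76 in the low ones. On the signals as deposited the list's median was 1.72.

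**Figure D2:**
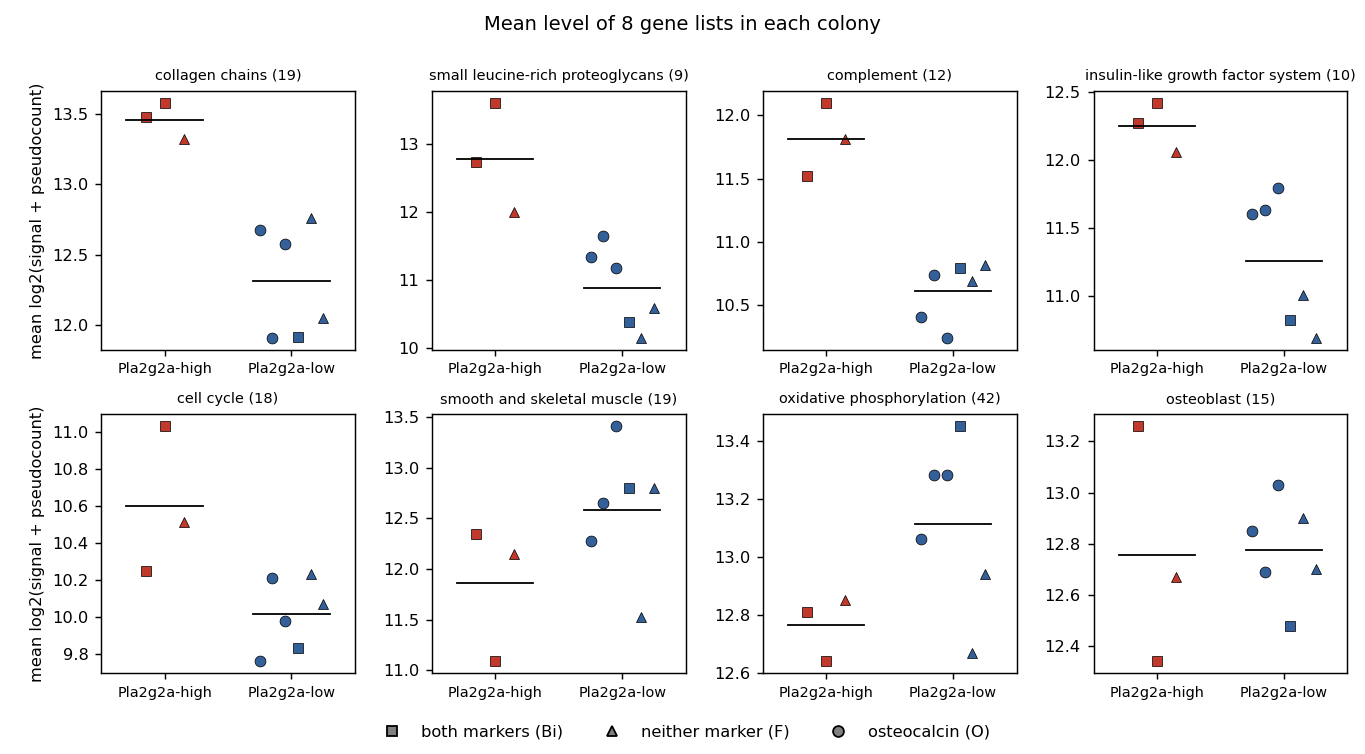
Mean log2(signal + pseudocount) of 8 gene lists in each colony, high colonies at the left (red) and low colonies at the right (blue), with bars at the mean and the number of genes in brackets. Collagen chains (13.32 to 13.58 against at most 12.76), proteoglycans, complement and cell cycle genes do not overlap. The cell cycle list nearly does, at 10.25 in Bi-I and 10.23 in F-I. The insulin-like growth factor list holds Igf2 by 1 of its 2 opposing probe sets, and muscle, oxidative phosphorylation and osteoblast genes overlap. Among lists not shown, adventitial-type fibroblast genes (11.20 to 12.16 against at most 11.06) do not overlap either. The same holds, narrowly, for inflammatory genes (10.87 to 10.93 against at most 10.78) and metalloproteases with inhibitors (11.77 to 12.04 against at most 11.72).

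Further leading genes of chip A follow in the order of their roles, beginning with surface proteins and 1 matrix protein, Tnn. Tspan8 encodes a tetraspanin, a membrane protein that organises other surface proteins. It gave 6906 in Bi-I, 20621 in Bi-II and 8567 in F-II, against 20.6 to 1015 in the low colonies (difference 4.53, SE 0.470, 23.0-fold). O-II held the highest low value, and Bi-III the lowest. Pdgfra, the alpha receptor for platelet-derived growth factor and a common mark of fibroblast progenitors, gave 5194, 6105 and 3327 against 60.0 to 1042 with a median of 209 (difference 3.36, SE 0.439). All low colonies but O-I were at or below 279. Gja1, which encodes the gap junction protein connexin 43, gave 36348, 50516 and 65423 against 4052 to 12196 (difference 2.65, SE 0.340). Lgr5, an R-spondin receptor known from stem cells of other tissues, gave 4900, 14184 and 3689 against 205 to 1428 (difference 3.14, SE 0.466). Tnn, the matrix protein tenascin N, gave 24814, 9626 and 15963 against 307 to 3310 (difference 3.42, SE 0.528).

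Genes of adventitial-type fibroblasts, the connective tissue cells around vessels, were counted as a list of 28. Of the 20 measured, 14 had a higher mean in the high colonies and 6 a lower one, 6 passed the rule upward and 0 downward (2.91% and 1.03% of all genes), and the median was 0.70. Beside Pdgfra and Col14a1, the ferritin receptor gene Scara5 gave 6365, 76403 and 3266 on chip B against 76.1 to 1984 (difference 3.37, SE 0.683). Bi-II stood far above the other high colonies, and the difference ran from 2.05 to 4.26 when each colony was left out. It was 5.10 within station 1 and 1.18 within station 2, the fluidics stations described below. Cxcl12, Igfbp6 and Cygb also passed. Against this direction ran Cd248, an endosialin of fibroblasts and pericytes, with overlap (655, 1473 and 387 against 1132 to 3662, difference -1.15). Pi16, Clec3b and Efemp1 were below the filter. Cxcl12, Cygb, Cd248, Pi16, Clec3b and Efemp1 were named after their values were seen.

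The other leading genes of chip A had varied roles. Ccl20, a chemokine, gave 4292, 9882 and 6494 against 145 to 1204 with a median of 445 (difference 3.25, SE 0.432). Xdh, the enzyme that makes uric acid, gave 6414, 15246 and 5496 against 563 to 2039 (difference 2.69, SE 0.382). Ndrg1, a stress-responsive gene, gave 10699, 13211 and 9933 against 378 to 2598 (difference 2.92, SE 0.423). RT1-CE12, a class I histocompatibility gene of a large family whose copies the probes may not tell apart, gave 24427, 46371 and 31442 against 4563 to 12960 (difference 2.37, SE 0.339). Ccdc3, Slc12a2, Kctd12 and Steap2 completed the chip A set, with differences of 2.14, 1.96, 2.69 and 1.67. For Kctd12 and Steap2 a second probe set on chip B pointed the other way (-0.50 and -0.60). The chip A probe set of Kctd12 was kept by the filter through the high colonies alone and had to differ.

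Chip B was not read by the rule but carried RNA of the same colonies. C2 led its higher genes, and the next were of varied roles. Chi3l1, a chitinase-like glycoprotein, gave 15929 in Bi-I, 9480 in Bi-II and 8254 in F-II, against 388 to 3264 in the low colonies (difference 2.84, SE 0.471). Adamts5, an aggrecan-cleaving protease, gave 5577, 11265 and 4854 against 136 to 3209 (difference 2.84, SE 0.558). Its relative Adamtsl1, which lacks protease activity, gave 9250, 15733 and 11593 against 667 to 7666 (difference 2.56, SE 0.482), and O-I alone held the high value among the low colonies. Slit2, an axon guidance ligand, gave 3758, 7350 and 3872 against 457 to 1199 (difference 2.05, SE 0.412). Csgalnact1, which starts chondroitin sulfate chains, gave 3342, 4646 and 4663 against 100 to 1015 (difference 2.36, SE 0.461). Eepd1, Cobl and Nostrin were higher by 2.68, 2.58 and 1.65, though a second Cobl probe set differed by only 0.24 (SE 0.384). Kmt2e and Apbb2 were higher by 2.88 and 2.57, each with another probe set that pointed the other way (-0.50 and -1.03).

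Fewer genes were lower, and by less. Uchl1, a ubiquitin hydrolase known from neurons, gave 1329, 333 and 204 in the high colonies against 2611 to 4395 in the low ones (difference -2.32, SE 0.368). F3, the tissue factor that starts blood clotting, gave 3520, 646 and 2486 against 6311 to 11723 (difference -2.08, SE 0.383). Procr, the receptor for protein C on the opposing arm of the clotting system, gave 1453, 843 and 1363 against 2612 to 4907 (difference -1.41, SE 0.294). Ninj1, a membrane protein with a part in plasma membrane rupture, gave 2633, 1627 and 1908 against 4390 to 7288 (difference -1.47, SE 0.265). Rhoc, Snrpd2, Ube2l3, St8sia4 and Cinp were lower by values between -1.14 and -1.73, though a second Ube2l3 probe set did not differ (-0.00). On chip B, Matr3, Gaa, Mycl, Bcl6b, RT1-Ba, Zan, Agr2 and Sfta2 were lower by values between -1.44 and -2.08. Of these, Matr3, Gaa and Bcl6b had other probe sets that were higher in the high colonies, by 1.20, 0.86 and 0.83. F-II was by far the lowest colony in Gaa, at 325 against 2251 and 1449 in Bi-I and Bi-II, and without it the differences of Gaa and Mycl were -1.24 and -1.30.

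Igf1 and Igf2 encode the insulin-like growth factors, abundant mitogens of bone. Igf1 gave 11423, 20161 and 10732 against 114 to 6207 with a median of 491 (difference 3.59, SE 0.795). Its 2 other probe sets were higher by 2.39 and 1.17. The low colonies fell into unequal values, with O-I and O-III at 6207 and 4858 and the other 4 at or below 681. The 2 probe sets of Igf2 went in opposite directions: one was lower without overlap (65.1, 86.4 and 121 against 481 to 1377, difference -1.84, SE 0.398), and the other was higher with overlap (5922, 31020 and 1255 against 289 to 1662, difference 2.57, SE 0.665). No direction is given for Igf2. With the second probe set of Igf2, the brighter one, 8 of the 10 measured genes of the system had a higher mean, 2 passed the rule upward and 0 downward, and the median was 0.51. With the first one, an alternative added after seeing the data, 7 had a higher mean, 2 passed upward and 1 downward, and the median was 0.32. Without F-III the median was 0.31.

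The enzyme family of Pla2g2a itself showed no shared shift. Of 35 listed phospholipase A2 and eicosanoid genes, 21 were measured, with 11 higher, 10 lower and a median of 0.04, which ran from -0.08 to 0.22 when each colony was left out. The prostaglandin E receptor gene Ptger2 alone passed the rule (2.91% of all genes did), with 6538, 12858 and 5117 on chip B against 484 to 3587 (difference 1.95, SE 0.444). The difference was 3.08 within station 1 and 0.97 within station 2. Ptgs2, the inducible cyclooxygenase that supplies prostaglandin precursors, overlapped (908, 1279 and 379 against 298 to 2819, difference 0.04), and so did Pla2g4a, the cytosolic phospholipase A2 (1855, 1972 and 2493 against 1057 to 2086, difference 0.44). Both were named after their values were seen. Plaat3, an acyltransferase of phospholipid metabolism, differed by 0.62 and Pla2g12a by -0.88, both with overlap.

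Inflammatory genes were mixed as well. Of 24 measured, 16 had a higher and 8 a lower mean, 2 passed the rule upward (2.91% of all genes) and the median was 0.13, which was 0.03 without F-II. Beside Ccl20, the adhesion molecule Icam1 gave 2432, 4268 and 2681 against 212 to 2023 (difference 1.64, SE 0.451). Nfkb1, a subunit of NF-kB, gave 3075, 3854 and 1356 against 319 to 1808 (difference 1.45), with overlap. Ccl2, a monocyte chemokine named after its values were seen, ran the other way with overlap, at 9592, 5614 and 7651 against 8360 to 68402 (difference -1.38). Of 17 interferon response genes 14 had a higher mean, 1 passed the rule (the immunoproteasome subunit gene Psmb10, higher by 1.01) and the median was 0.43, which was 0.66 without F-II and -0.06 within station 2. In the glucocorticoid list Mt2A, a metal-binding metallothionein, gave 36318, 28133 and 47178 against 1210 to 19483 (difference 2.70, SE 0.635). Klf9, a glucocorticoid-induced transcription factor, gave 16097, 16493 and 21964 against 1985 to 11192 (difference 2.03, SE 0.474), and a second probe set of it differed by -0.13. The 10 measured genes of that list had a median of 0.20.

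Bone, fat and muscle genes did not share the direction of the matrix genes. Of 15 osteoblast genes 5 had a higher and 10 a lower mean, and the median was -0.22. The 2 that passed upward were Col1a1 and Col1a2. Spp1, which encodes osteopontin, a secreted phosphoprotein of bone, ran lower with overlap, at 91454, 24878 and 32682 against 66448 to 297737 (difference -1.90, SE 0.509). Of 19 adipocyte genes 6 were higher, 13 lower and 0 passed the rule, with a median of -0.26. On the signals as deposited the osteoblast and adipocyte medians were 0.03 and 0.08. They ran from -0.40 to -0.10 and from -0.42 to -0.14 when each colony was left out. Among the adipocyte genes 2 were lower without overlap, as were 2.70% of all genes. One of them was Plin4, a lipid droplet protein (386, 807 and 738 against 891 to 2214, difference -0.78). Smooth and skeletal muscle genes had the lowest median of the 22 lists, -0.55, with 3 of 19 higher and 16 lower, though 0 lay apart without overlap. Acta2, the smooth muscle actin of contractile fibroblasts, gave 18110, 3459 and 6164 against 9789 to 93287 (difference -2.22, SE 0.653). Tagln, an actin-binding protein of the same cells, gave 37544, 5280 and 8760 against 26758 to 112474 (difference -2.12, SE 0.531). Bi-II and F-II lay below all low colonies in both genes, while Bi-I lay among them. The muscle list's median was -0.77 within station 1, 0.05 within station 2 and -0.28 without Bi-II.

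**Figure D3:**
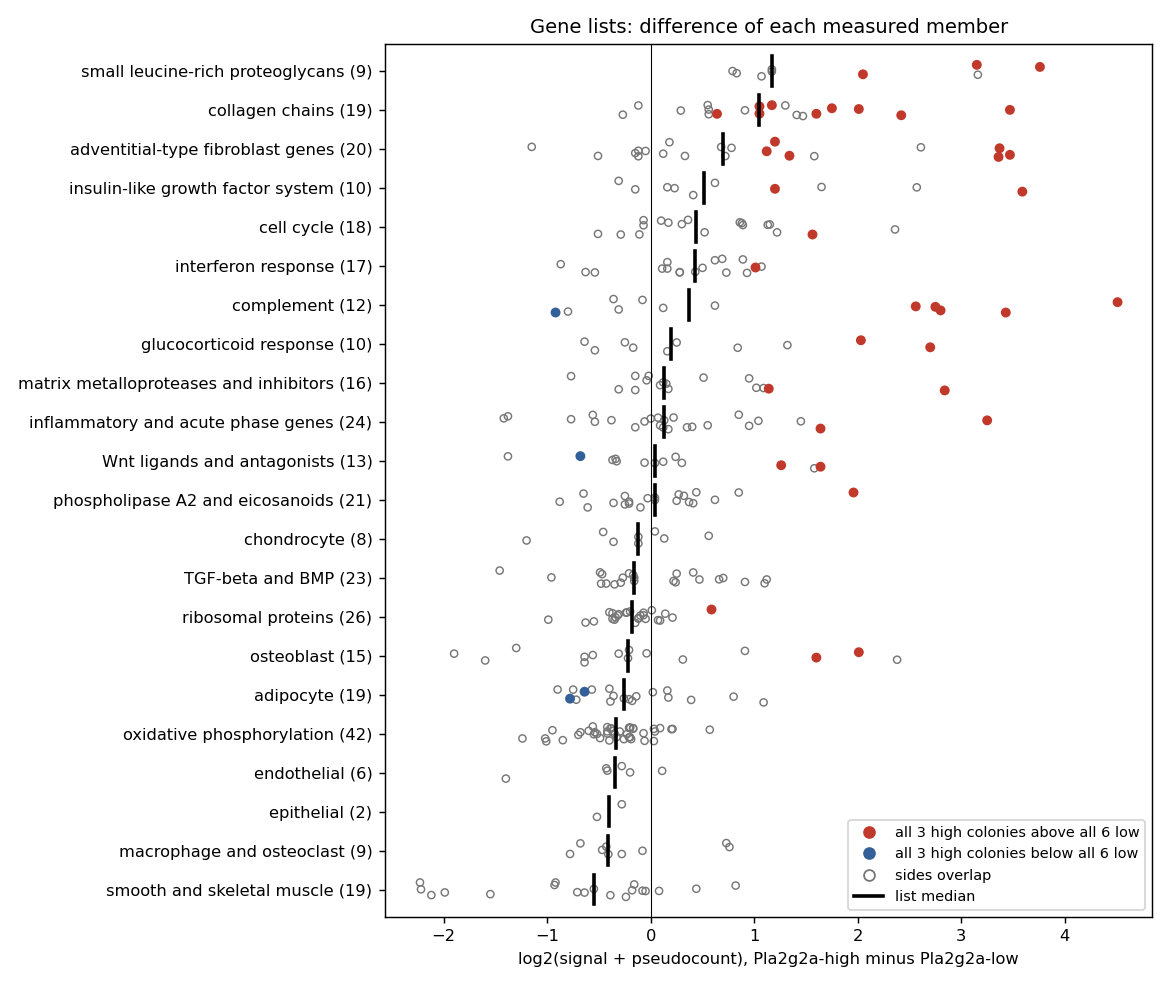
Difference of each measured member (Pla2g2a-high minus Pla2g2a-low, log2) for 22 gene lists, ordered by their median (black bar), with the number of genes in brackets. Filled points are genes whose sides do not overlap. Proteoglycans (median 1.17) and collagen chains (1.05) lie farthest to the right, and complement holds 5 genes beyond 2.5 log2 units beside a median of 0.37.

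Among the remaining lists, the 13 measured Wnt genes centred on 0.04. The secreted antagonist Dkk3 was higher by 1.64 (SE 0.341) and the receptor Fzd1 by 1.26 (SE 0.341), both without overlap. Against these 2, 1 Wnt gene lay lower without overlap. Over all genes 4.75% lay higher and 2.70% lower without overlap. A second Dkk3 probe set differed by -0.36. TGF-beta and BMP genes had a median of -0.16 over 23 and 0 passed, and on the signals as deposited the median was 0.46. Matrix metalloproteases and inhibitors had a median of 0.13 over 16, with Mmp2, a gelatinase, at 24228, 28432 and 20489 against 5722 to 16740 (difference 1.14, SE 0.335) and a second probe set at -0.13. Of 18 cell cycle genes 13 had a higher mean, the median was 0.44 (0.19 without Bi-II), and Mcm7, a subunit of the replicative helicase, alone passed the rule with 1383, 1874 and 1262 against 184 to 893 (difference 1.56, SE 0.400). Mcm7 too was kept by the filter through the high colonies alone, so it had to differ. Oxidative phosphorylation genes had a median of -0.34, with 35 of 42 lower, and ribosomal protein genes one of -0.18, with 20 of 26 lower. These medians were -0.80 and -0.62 within the both-marker colonies, 0.20 and 0.27 within the neither-marker colonies, and 0.32 and 0.53 on the signals as deposited, so neither list has a settled direction.

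Markers of other cell types were read in each colony as a summed signal. The 7 endothelial markers on the arrays, of 8 listed, summed to 3018 to 3314 in the high colonies and 3762 to 6342 in the low ones, without overlap, with Tek the brightest. Pecam1 and Kdr, which define endothelium, gave 40.9 to 186 and 63.2 to 290 in the high colonies and 33.9 to 294 and 88.2 to 745 in the low ones. The 9 macrophage markers summed to 4123 to 7438 against 5985 to 10753, and Ptprc, the pan-leukocyte marker, gave 34.1 to 316 against 122 to 726. The 10 smooth muscle markers summed to 17395 to 76807 against 45013 to 272740, and the 8 adipocyte markers to 2076 to 3090 against 2947 to 5438. For the osteoblast markers (7 of 10 on the arrays) the sums were 27435 to 94020 against 71150 to 300222, nearly all of it from Spp1. The 10 chondrocyte markers summed to 7681 to 8818 against 7751 to 10982, and the 10 epithelial markers to 2601 to 5621 against 2283 to 6148. The 4 osteoclast markers summed to 6826 to 28436 against 6713 to 16145, mostly Ctsk, and the 5 skeletal muscle markers on the arrays to 1368 to 3599 against 2003 to 4974. No marker was at 0. The part of other cells in the differences was not tested, and in bulk RNA fewer cells of a type and less RNA per cell cannot be told apart.

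The differences were also read within the marker types, where both sides occur. Within the both-marker colonies Bi-I and Bi-II were set against Bi-III, and within the neither-marker colonies F-II against F-I and F-III. C1s was higher by 4.25 and 4.32 in these comparisons, Tspan8 by 5.56 and 4.65, Dcn by 3.90 and 3.76, C3 by 4.08 and 2.42 and C2 by 2.77 and 2.76. The 20 leading chip A genes were all higher in both, the smallest value being that of Steap2 within the both-marker colonies, 1.33. They were placed on the list by these colonies, so their signs here follow from the choice.

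**Figure D4:**
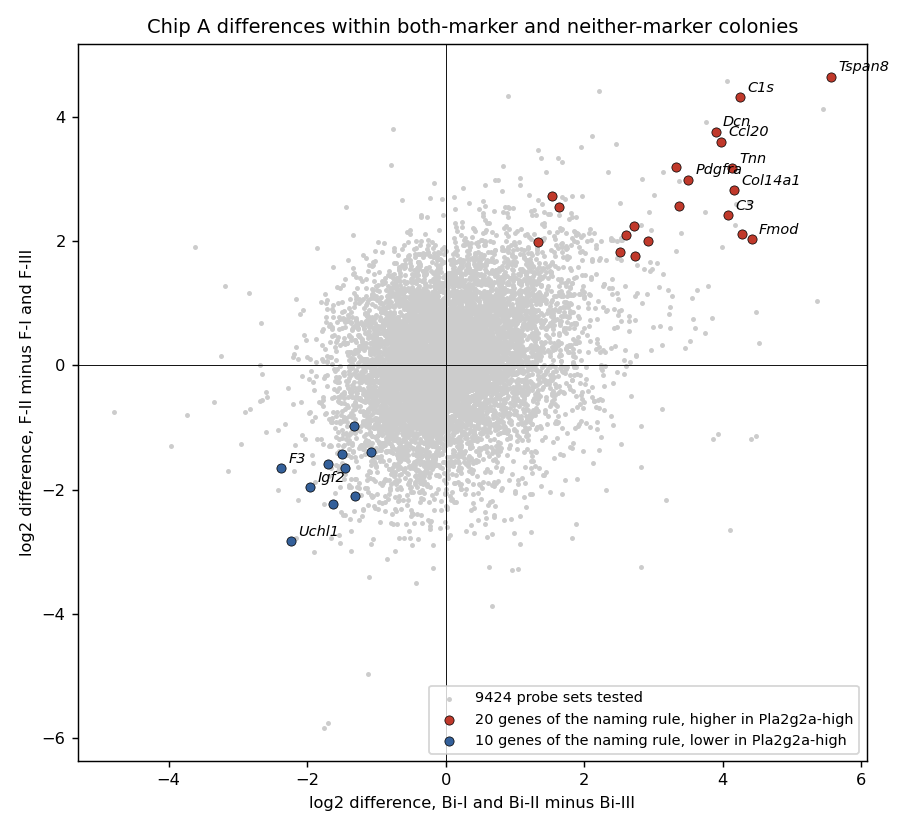
Chip A differences within the both-marker colonies (Bi-I and Bi-II minus Bi-III, horizontal) and within the neither-marker colonies (F-II minus F-I and F-III, vertical), in log2 units, for 9424 probe sets (grey), with the 20 higher (red) and 10 lower (blue) genes of the naming rule. The red genes lie at upper right, with Tspan8 at 5.56 and 4.65, and the blue ones at lower left.

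To read genes in colonies that had not chosen them, probe sets were picked on Bi-I and Bi-II against Bi-III and the 3 osteocalcin-only colonies (no overlap and at least 2 log2 units) and then read in F-II against F-I and F-III. No colony was shared between the steps, although F-II had been placed on the high side by Pla2g2a. F-II also shares its colony number with Bi-II on the high side and O-II on the low side of the picking step. The part of the colony number in this reading was not tested. On chip A 70 probe sets were picked as higher, and F-II lay above both F-I and F-III in 52 of them (74.3%), where 34.5% of all 9424 did so. It lay below both in 8, where 33.3% of all did so. The median of F-II minus the mean of F-I and F-III was 1.59 over the picked probe sets and 0.05 over all, and 25 of the 70 reached 2 log2 units. On chip B 94 were picked, with F-II above both in 54 (57.4%, against 34.4% of all 9887) and below both in 10 (against 31.0%), and with a median of 0.94 against 0.10. Of the probe sets picked as lower, 7 of 8 lay below both in F-II on chip A but 1 of 7 on chip B, where 4 lay above both. In F-II, most probe sets picked as higher thus lay above both F-I and F-III on both chips. Most of those picked as lower lay below both on chip A alone, over few probe sets. This reading rests on 1 high colony, whose GAPDH control stood apart, and probe sets are not independent of each other. The filter could also keep a probe set through the high colonies, F-II among them. With no filter the shares of picked probe sets above both were 72.4% on chip A and 56.2% on chip B. Igf1 (4.57), Gja1 (3.20), Lgr5 (2.11) and Chi3l1 (2.73) were among those above both in F-II. Abi3bp (0.52), the second Igf2 probe set (0.28) and Aldh3a1 (-1.14), a detoxifying dehydrogenase, were not, and Abi3bp and Aldh3a1 were named after their values were seen.

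**Figure D5:**
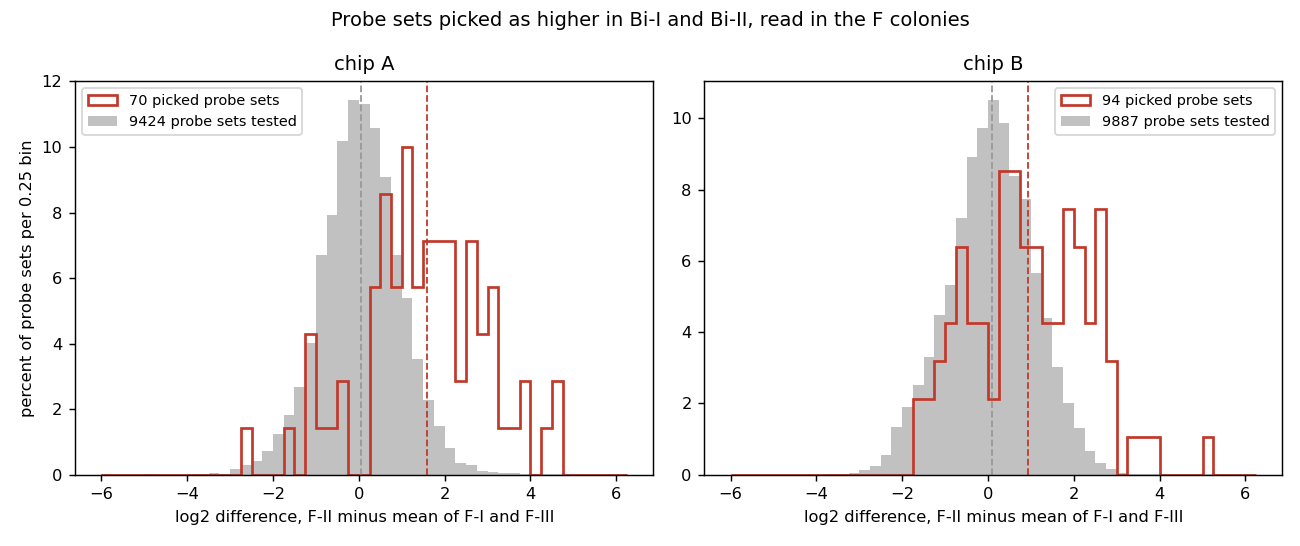
Distribution of F-II minus the mean of F-I and F-III (log2) for probe sets picked as higher in Bi-I and Bi-II (red outline, 70 on chip A and 94 on chip B) and for all probe sets tested (grey). Dashed lines mark the medians, 1.59 against 0.05 on chip A and 0.94 against 0.10 on chip B.

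The array records name 2 fluidics stations, and each held colonies of both sides on each chip. On chip A station 1 held Bi-I and Bi-II with O-I, O-II and O-III, and station 2 held F-II with Bi-III, F-I and F-III. On chip B, which carries Scara5 and Ptger2, station 1 held Bi-I and Bi-II with Bi-III and F-I. Station 2 there held F-II with O-I, O-II, O-III and F-III. A list with genes of both chips thus mixes unlike comparisons in its medians within stations. Within the chip A stations C1s was higher by 4.73 and 4.34, Tspan8 by 4.10 and 4.79, Dcn by 3.72 and 3.61 and Fmod by 3.48 and 2.37. Over the 9424 probe sets the differences within the 2 stations, which share no array, had a Pearson's r of 0.377, and 0.168 over the 9887 of chip B. Genes are not independent of each other, so this is a description. Of the 98 kept probe sets that both chips carry, the high minus low differences of the chips had r = 0.864 and the same sign in 73. That comparison is across chips and rests on the same RNA.

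The high colonies were not one uniform group. Over the kept probe sets of chip A their profiles correlated at 0.796 to 0.906 with each other, against 0.558 to 0.907 with the low colonies. On chip B these ranges were 0.623 to 0.812 and 0.230 to 0.752. Bi-II held the highest signal of the 3 in 162 of the 309 higher chip A probe sets, F-II in 107 and Bi-I in 40. F-II was the lowest in 100. No single high colony was thus the highest throughout.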

How the data were processed

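Affymetrix signals were measured for 9 colonies on 2 chips. The authors deposited 1 linear signal intensity per probe set and array, made with MAS5 per the submitters' processing notes. The program's version and scaling are not given in the sources used here. Arrays give no read depth, so their number limits the precision. Each array was rescaled to a 2%-trimmed mean of 1500 and taken as log2(signal + pseudocount), with a pseudocount (the median over arrays of the 25th percentile) of 238.7 on chip A and 336.2 on chip B, so differences of dim genes are understated. Folds are on that scale. Control probe sets (57 per chip) and Pla2g2a were left out, and probe sets above the array median on at least 3 of 9 arrays were kept. Names came from the platform annotation, from probe sets with 1 symbol only (12789 on chip A, 7570 on chip B) and checked against RefSeq gene identifiers.

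The chips were fitted separately, with limma 3.58.1 (R 4.3.3; 2 side means, 7 residual degrees of freedom, intensity trend). The code of the fit was checked on simulated independent noise with planted differences. That simulation held no outlying array and no choice of sides from the data, so it does not speak for the fit under these conditions. SE is that of the difference, high minus low. Gene lists used 1 probe set per gene, chip A first, then the brightest. The named genes were the 20 higher and 10 lower without overlap and with the smallest limma p on chip A, 12 and 8 on chip B, 3 per list, and Dcn, C1s, Tspan8, Bglap and Cfd. Other genes are named as members that account for a list or were picked after their values were seen. The sides, members and lists were chosen with earlier results of these data known. Alternatives were other scalings, pseudocounts and filters, array weights, marker type, colony number and fluidics station as blocks, and leaving out each colony. Tables and figures used Python 3.11.15, pandas 2.3.3 and matplotlib 3.10.9.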

Additional observations from a re-analysis of the deposited data

Results flagged for a closer look

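Among 103 named probe sets, 9 held a low colony that lay far from the other 5 on the log2 scale, by a gap test that chance meets in about 1 of 20 groups, so several are to be met by chance over that many. C1s was dimmest by far in O-III (8.79) and Dcn in F-I (8.25). RT1-CE12 stood out upward in F-I (13.69), Adamtsl1 in O-I (12.97), Myh11 in O-III (13.80), Ltbp1 in O-I (12.34), Prc1 in F-I (11.80) and Mcm7 in F-III (10.14), and RT1-A2 stood out downward in F-I (11.67). In 3 genes every high colony lay on one side of the low colonies within the both-marker type and on the opposite side within the neither-marker type, a difference that was not tested: Col11a1 was 1.96 within the both-marker and -0.89 within the neither-marker colonies, Lyz2 was -0.30 and 1.46, and Krt8 was -1.49 and 0.60.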

How the results depend on the processing

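Counts of higher and lower probe sets depended mostly on scaling and on single colonies. Chip A gave 687 higher and 0 lower probe sets on the signals as deposited. Leaving out each colony gave 296 to 476 higher and 115 to 245 lower on chip A, and 225 to 625 higher and 119 to 284 lower on chip B, where a filter on the mean level left 62 lower. The limma calls moved most. On chip A they were 24 on the signals as deposited, 25 with no pseudocount, 586 with array weights, 37 within station 1 and 15 to 140 when each colony was left out. On chip B they were 5 after quantile normalization, 3 with no pseudocount, 5 with a pseudocount of 100, 3 with no filter, 6 with a filter on the mean level, 198 with array weights, 9 with the fluidics station as a block, 3 within station 1 and 2 to 56 when each colony was left out. The cause was not tested. With a replicate block for the colony numbers I to III, 230 higher and 76 lower probe sets with 15 limma calls remained on chip A and 183, 91 and 3 on chip B. The labels do not say whether same-numbered colonies share an origin. With the mean of each marker type removed, same-numbered colonies correlated over 0.1 in 6 of 9 pairs on chip A and 3 of 9 on chip B. Among colonies of other marker types, 7 and 5 of 9 colonies were closest to one of their own number. Whether same-numbered colonies share a batch or preparation was not tested, and the main fit takes no account of the number. The share of picked probe sets that lay above F-I and F-III in F-II ran from 63.0% to 77.8% on chip A and from 49.1% to 60.5% on chip B. Of 2154 differences of named genes under the alternatives, 2102 stayed within the spread between colonies and 6 changed sign, in Col11a1, Ctsk, Esam, Krt5, Krt8 and Rpl30. Of 485 list medians 29 changed sign, in 14 of the 22 lists. The lists without a sign change were proteoglycans, collagens, complement, insulin-like growth factors, adventitial-type fibroblast genes, cell cycle, matrix metalloproteases and inhibitors, and endothelial genes. When each colony was left out, the medians of Wnt and of TGF-beta and BMP genes ran from -0.14 to 0.24 and from -0.23 to 0.14.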
